A study of Mus musculus with 2 samples.

Results

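Glucose enters brown adipocytes through the transporters Slc2a1 (GLUT1) and Slc2a4 (GLUT4) and is broken down by glycolysis. The 10 genes described here were taken as a list by name: these transporters, the hexokinase Hk2, the phosphofructokinase subunits Pfkl and Pfkp, the aldolase Aldoa, the dehydrogenase Gapdh, the pyruvate kinase Pkm and the lactate dehydrogenase subunits Ldha and Ldhb. All 10 are among the 31053 genes of the count matrices. Aldoa has 2 identifiers there, and ENSMUSG00000030695 is used.

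The tissue was brown fat of C57BL/6 mice, an inbred laboratory strain, measured by single-nucleus RNA sequencing of DAPI-sorted nuclei in droplets. TN mice lived at thermoneutrality, where no extra heat production is needed. 1cyc mice were sampled 4 days after one transient acute exposure to cold. Each condition is 1 library pooled from 5 mice, so there is no replicate check and no test, and the effect of condition cannot be told apart from that of library. Neither age nor sex is given in the labels.

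The values are UMIs, barcoded counts of captured molecules, summed over nuclei and scaled to CPM, counts per 1000000 UMIs of the sum. Intervals in parentheses are at 95% and cover counting error only, not the spread between mice or library preparations. In bulk sums of this kind, fewer positive nuclei and fewer transcripts per nucleus cannot be told apart, and detection per nucleus is therefore given as well.

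GLUT4 is the insulin-responsive transporter of fat and muscle, held inside the cell until signals such as insulin bring it to the surface. GLUT1 is the more widely expressed one. Hexokinase traps glucose as glucose 6-phosphate, phosphofructokinase commits it to glycolysis, and aldolase splits the resulting sugar. Pyruvate kinase makes pyruvate, which lactate dehydrogenase interconverts with lactate. Cold-activated brown fat is known for high glucose uptake, and part of its glucose supplies glycerol and fatty acid synthesis.

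Nuclei counted as adipocytes held at least 4 UMIs of Pparg, Acsl1, Pde3b and Ppara together and under 5% mitochondrially encoded (mt-) UMIs. This took 1081 of 2551 TN barcodes, which hold 1193078 UMIs (median 873 per nucleus), and 912 of 4321 1cyc barcodes, which hold 989852 UMIs (median 966.5). The cut is a point on a range: 61 TN and 53 1cyc barcodes under the mt- limit held 3 marker UMIs, and 45 and 49 held 4. The lowest adipocyte nucleus had 501 UMIs in TN and 270 in 1cyc. The deposited barcodes start at 500 and 262. Of the 10 adipocyte markers, 4 are the genes of the cut, so their presence was fixed by it. The 6 markers outside the cut also had UMIs in both libraries. Among these were Ucp1, the brown fat uncoupling protein (126 CPM in TN and 270 CPM in 1cyc), and Adipoq (95.6 and 139 CPM). The median nucleus held 0 UMIs of each list of other cell types except the fibroblast or progenitor list, with 1 in each library. The 2 libraries share 6 barcodes.

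Some barcodes that pass the cut carry other cell types' transcripts. Haemoglobin genes took 36557 CPM of the TN adipocyte sum and 2734 CPM of the 1cyc sum, and 6 TN nuclei with over 5% haemoglobin held 46202 UMIs. The 9 skeletal muscle markers summed to 107 CPM in TN, where Myh2 was at 0, and to 415 CPM in 1cyc, where all had UMIs. Endothelial markers stood at 537 and 224 CPM, and cytosolic ribosomal protein genes at 2254 and 680 CPM. Values without nuclei richer in other cell types' markers are given beside the results they touch.

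Sequences before the gene start are shown for Ldha and Ldhb, subunits of 1 enzyme whose ratios between the libraries lie apart, and for Hk2, and were chosen because the windows differ in a short motif. The motif ACGTG is the core that hypoxia-inducible factors recognise, and it lies inside CACGTG, the E-box letters bound by factors such as ChREBP, MYC and USF. RefSeq windows of 250 bases before the start (GRCm38.p6) were at hand for 9 members, in 13 windows. On either strand, ACGTG lies in 6 of the 13 windows and in 16.6% of all 32851 windows of this length. The 6 windows belong to Slc2a1, Hk2, Aldoa, Pkm and Ldha, and the 2 of Aldoa overlap and share 1 match. CACGTG, which matches ACGTG on both strands at 1 place, lies in 1 of the 13 and in 6.02% of all. In the lines that follow, each on the gene's strand, capitals mark ACGTG or its reverse complement.
Ldha, chr7:46845554-46845803, plus strand: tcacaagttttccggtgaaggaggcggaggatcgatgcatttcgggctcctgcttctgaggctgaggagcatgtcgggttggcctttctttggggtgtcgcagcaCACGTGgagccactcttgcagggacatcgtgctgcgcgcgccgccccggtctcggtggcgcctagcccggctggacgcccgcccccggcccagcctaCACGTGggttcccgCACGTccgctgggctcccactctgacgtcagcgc
Ldhb, chr6:142507958-142508207, minus strand: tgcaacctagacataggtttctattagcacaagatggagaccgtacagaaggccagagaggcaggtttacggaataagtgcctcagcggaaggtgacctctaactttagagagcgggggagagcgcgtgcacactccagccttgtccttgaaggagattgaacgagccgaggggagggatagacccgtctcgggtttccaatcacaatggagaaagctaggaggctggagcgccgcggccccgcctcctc
Hk2, chr6:82774455-82774704, minus strand: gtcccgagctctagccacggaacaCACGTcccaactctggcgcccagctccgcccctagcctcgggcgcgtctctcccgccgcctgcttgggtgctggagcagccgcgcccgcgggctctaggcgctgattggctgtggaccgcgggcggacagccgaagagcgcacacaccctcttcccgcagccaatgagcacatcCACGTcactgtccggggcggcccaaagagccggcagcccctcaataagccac

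The Ldha window holds the motif in 3 separate places, 2 of them as the palindrome CACGTG, the Hk2 window in 2 places and the Ldhb window in none. The Ldha window lies inside the annotated Ldha gene with no exon in it, and the first transcribed bases at its start were not found in the GENCODE M21 transcripts. The Hk2 and Ldhb windows lie directly before the annotated genes. A second Ldha window, chr7:46846832-46847081, holds no match. These are matches of letters and show no binding.

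Over all 10 members, adipocyte nuclei held 613 UMIs in TN and 903 in 1cyc. TN thus had 514 CPM (474 to 556) against 912 CPM (854 to 974) for 1cyc, a ratio of 1.78 (1.60 to 1.97). Hk2, Pkm and Ldha were 2.01-, 2.24- and 2.94-fold higher in 1cyc and Ldhb 1.32-fold, Aldoa was higher on few counts, and the ratio intervals of both phosphofructokinase subunits and of Slc2a4 include 1.

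Of the 10 members, 7 reached 100 UMIs over both sums. Among them 3 were at least 1.5-fold higher in 1cyc, against 8.56% of all 3643 genes at that count, and the same 3 were at least 2-fold higher, against 1.54%. Pkm and Ldha stayed at or above 2-fold in all 18 alternatives, while Hk2, at 2.01, lies at this limit. In nuclei of 2 to under 5% mt- UMIs, a band not among the 18, Pkm was at 1.93 (1.41 to 2.63). None of the 7 was 1.5-fold lower (5% of all genes) or 2-fold lower (2.14%). Above a ratio of 1 stood 6 of the 7, against 60.9% of all genes. The median log2 ratio was 0.53 over the 7 members and 0.09 over all genes.

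**Figure D1:**
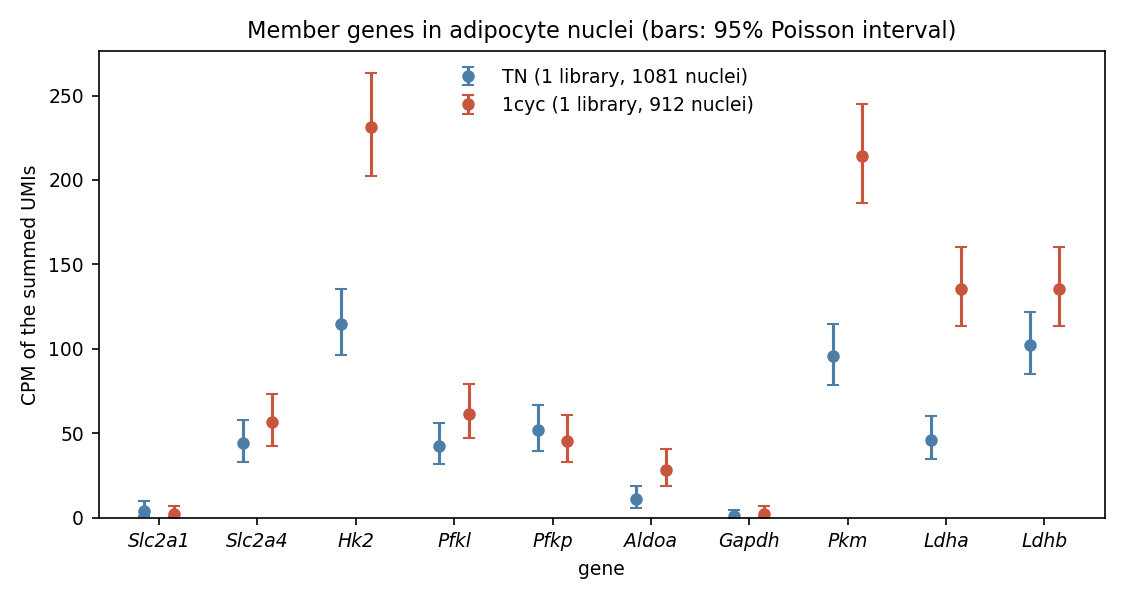
CPM of each member in the summed adipocyte nuclei of TN (blue) and 1cyc (red), 1 library each; bars are 95% Poisson intervals. The intervals of Hk2, Pkm and Ldha lie apart between the libraries, those of Slc2a4, Pfkl, Pfkp and Ldhb overlap, and Slc2a1 and Gapdh lie near 0.

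Among the transporters, Slc2a4 (chromosome 11, 69942539 to 69948188) had 53 TN and 56 1cyc UMIs, or 44.4 CPM (33.3 to 58.1) and 56.6 CPM (42.7 to 73.5). The ratio of 1.27 (0.859 to 1.89) includes 1. Slc2a1 (chromosome 4, 119108711 to 119137983) rested on 5 and 2 UMIs, or 4.19 CPM (1.36 to 9.78) and 2.02 CPM (0.245 to 7.30), and a difference was not detectable at this depth. Slc2a4 made up 91.4% (81.0 to 97.1) of the 58 transporter UMIs of TN, and 96.6% (88.1 to 99.6) of the 58 of 1cyc. These shares compare UMIs and are not corrected for gene length.

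Slc2a4 was seen in 4.53% (3.37 to 5.95) of TN adipocyte nuclei and 5.70% (4.29 to 7.41) of those of 1cyc. In fibroblast or progenitor-like nuclei, which should lack it, it was seen in 0 of 104 in TN (median 1114.5 UMIs, an exact upper bound of 3.48%) and 0 of 63 in 1cyc (median 977 UMIs, an upper bound of 5.69%). The 3 counts that a count of 0 allows correspond to 2.88% and 4.76%. The adipocyte intervals of these shares reach below the exact bounds in both libraries, and such an overlap does not settle whether the shares differ. On summed UMIs, the exact ratio interval of Slc2a4 against these nuclei starts at 1.498 in TN and 0.949 in 1cyc. The 1cyc difference is thus within counting error. Slc2a4 was also at 0 UMIs in skeletal muscle-like nuclei, 28 of TN and 7 of 1cyc, although GLUT4 is a transporter of muscle. The upper bounds there were 110 and 366 CPM. The 23 endothelial-like nuclei of TN held 1 UMI of it. A count of 0 in so few nuclei thus does not show absence. The other members are expressed widely, and no class at hand should lack them.

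Hk2 (chromosome 6, 82725025 to 82774454), the hexokinase of insulin-sensitive tissues, had 137 UMIs in TN and 229 in 1cyc. Its level was 115 CPM (96.4 to 136) and 231 CPM (202 to 263), a ratio of 2.01 (1.62 to 2.51). Over 18 alternatives this ratio ranged from 1.68 to 2.42 and was under 2 in 10 of them. Bands of mt- UMIs, not among these, gave 2.59 (1.39 to 5.17) under 1% and 2.35 (1.72 to 3.21) at 2 to under 5%. At 1 to under 2% the ratio was 1.43 (0.982 to 2.09), an interval that includes 1. Hk2 was detected in 119 of the TN nuclei (11.01%) and 191 of the 1cyc nuclei (20.9%). The intervals of the levels do not overlap.

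The phosphofructokinase genes had lower ratios than Hk2, and whether they differ from it was not tested. Pfkl, the liver-type subunit (chromosome 10, 77986947 to 78010083), had 51 TN UMIs (42.7 CPM) and 61 1cyc UMIs (61.6 CPM), which gives 1.44 (0.978 to 2.13). Pfkp, the platelet-type subunit (chromosome 13, 6579768 to 6648777), had 62 (52.0 CPM) and 45 (45.5 CPM), which gives 0.875 (0.582 to 1.31). Both intervals include 1. That of Pfkl overlaps the interval of Hk2 (1.62 to 2.51), and that of Pfkp does not. Over 17 other ways of choosing or scaling the nuclei that give an interval, that of Pfkl lay above 1 in 5 and that of Pfkp in 0. The Pfkl share of the pair's UMIs was 45.1% (35.8 to 54.8) for TN, and for 1cyc 57.5% (47.6 to 67.1), and these intervals overlap. Pitrm1 overlaps Pfkp on the other strand and held 26 TN and 22 1cyc UMIs.

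Aldoa (chromosome 7, 126795234 to 126800751) had 13 UMIs in TN and 28 in 1cyc, 10.9 CPM (5.80 to 18.6) and 28.3 CPM (18.8 to 40.9). The ratio was 2.60 (1.30 to 5.46). The neighbouring Aldoa identifier had 1 UMI in each library. Fam57b overlaps Aldoa on the other strand and held 1 TN and 19 1cyc UMIs, and whether the counting used strand is not given in the sources used here, so the 2 genes may not be fully separated.

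Gapdh (chromosome 6, 125161715 to 125166467), often used as a reference gene, had 1 UMI in TN and 2 in 1cyc adipocyte nuclei. In the barcodes with 5% or more mt- UMIs and 4 or more marker UMIs it again had 1 and 2. Gapdh has many processed copies in the mouse genome, and how reads that match several places were treated is not given in the sources used here. These counts are too few for a fold or for use as a reference.

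Pkm (chromosome 9, 59656368 to 59679375) had 114 UMIs in TN, 95.6 CPM (78.8 to 115), against 212 UMIs in 1cyc, 214 CPM (186 to 245). The ratio was 2.24 (1.78 to 2.84). It was detected in 9.62% of TN and 19.3% of 1cyc nuclei. The gene-level counts do not separate its M1 and M2 splice forms.

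Ldha, the subunit that predominates in tissues that make lactate (chromosome 7, 46841475 to 46855627), had 55 UMIs in TN, 46.1 CPM (34.7 to 60.0), against 134 UMIs in 1cyc, 135 CPM (113 to 160). Its ratio of 2.94 (2.13 to 4.10) was the highest of the 7 members with 100 UMIs. It was detected in 52 TN nuclei (4.81%) and 114 1cyc nuclei (12.5%), with 2 or more UMIs in 2 and 18 of them.

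Ldhb, the subunit that predominates in heart and other oxidative tissues (chromosome 6, 142490249 to 142507957), had 122 UMIs, 102 CPM (84.9 to 122), against 134 UMIs, 135 CPM (113 to 160). Its ratio was 1.32 (1.03 to 1.71), and its interval lay above 1 in 10 of the 17 alternatives. With TMM scaling it was 1.23 (0.959 to 1.59). The ratio intervals of Ldha and Ldhb do not overlap. Of the 177 UMIs of the pair in TN, 31.1% (24.3 to 38.5) were Ldha, against 50% (43.9 to 56.1) of the 268 in 1cyc. In barcodes with 5% or more mt- UMIs and 4 or more marker UMIs the Ldha share was 36.0% (26.1 to 46.8) and 39.6% (31.2 to 48.4), so the shift seen in adipocyte nuclei was not seen beyond counting error there.

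**Figure D2:**
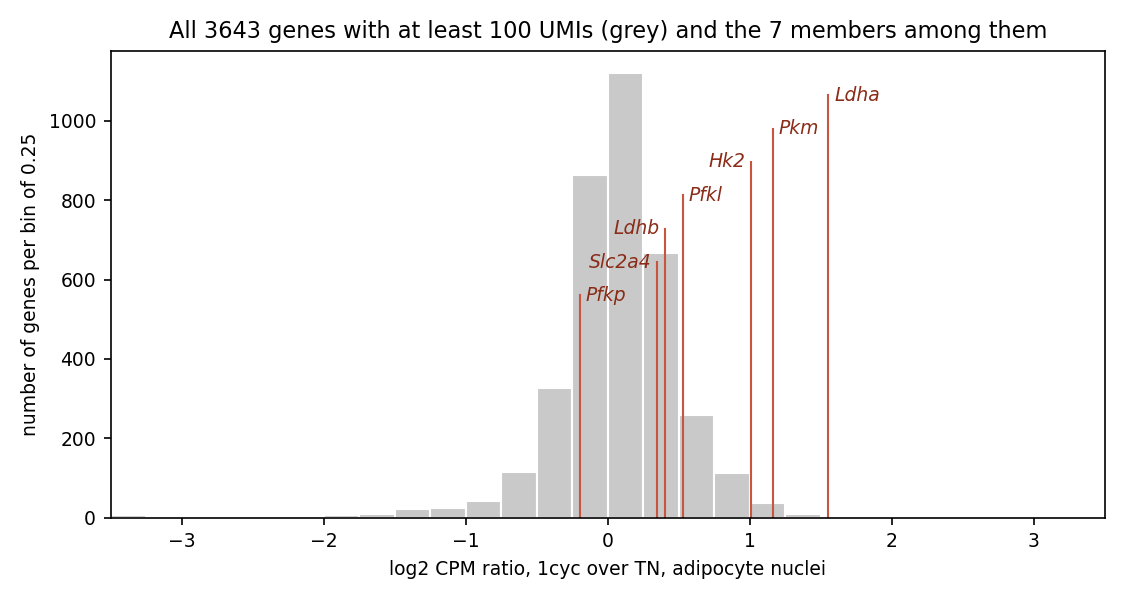
Number of genes per bin of log2 CPM ratio, 1cyc over TN, for all 3643 genes with at least 100 UMIs over the adipocyte sums (grey), with the 7 members that reach this count as red lines. Pfkp lies below 0, Slc2a4, Ldhb and Pfkl between 0.35 and 0.53, and Hk2, Pkm and Ldha above 1.

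More nuclei held any member transcript in 1cyc. At least 1 UMI was found in 441 nuclei of TN, 40.8% (37.8 to 43.8), against 504 nuclei of 1cyc, 55.3% (52.0 to 58.5). In fibroblast or progenitor-like nuclei the shares were 18.3% and 12.7%. With every nucleus thinned to 500 UMIs, which keeps all 1081 TN nuclei and 787 of 912 in 1cyc, the expected share was 23.6% in TN and 36.2% in 1cyc. The expected thinned count was 0.275 and 0.473 member UMIs per nucleus, a ratio of 1.72 (1.47 to 2.004).

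Co-detection was sparse. Transcripts of 2 different members were found in 89 TN (8.23%) and 142 1cyc nuclei (15.6%), of 3 in 14 and 53, of 4 in 0 and 8, and of 5 in 1 and 3. Members are thus mostly seen 1 at a time, and the 408 1cyc nuclei without any (44.7%) may hold transcripts that were not captured at this depth.

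Summed over the members, the between-library ratio was 1.81 (1.52 to 2.15) in nuclei of 500 to under 1000 UMIs, with 656 TN and 354 1cyc nuclei, and 1.82 (1.59 to 2.08) in nuclei of 1000 or more, with 425 and 433. Single members moved more between these bands. Ldhb stood at 0.951 (0.580 to 1.53) in the shallower and 1.59 (1.16 to 2.20) in the deeper nuclei, and Pfkl at 1.30 (0.718 to 2.32) and 1.9997 (1.13 to 3.63). Slc2a4 stood at 1.73 (0.839 to 3.56) and 1.14 (0.703 to 1.86), and Pfkp at 1.11 and 0.774. The intervals of the bands overlap for each of these 4 genes. Without the 57 TN and 41 1cyc nuclei that held a skeletal muscle marker UMI, the summed ratio was 1.75 (1.57 to 1.95). Without the 65 TN and 25 1cyc nuclei in which another cell type's markers exceeded the 4 adipocyte genes, it was 1.67 (1.51 to 1.86) and the Ldhb interval included 1 (1.25, 0.964 to 1.61). Without the barcodes that both libraries share, Hk2, Pkm and Ldha again were the 3 members at least 1.5-fold higher.

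Barcodes with 5% or more mt- UMIs that pass the marker cut numbered 816 in TN and 1637 in 1cyc. The mt- genes took 10.4% of the UMIs of these barcodes in TN and 23.8% in 1cyc, so the ratios are given on the scale of UMIs that are not mt-. There the members summed to 508 CPM and 1028 CPM, a ratio of 2.02 (1.76 to 2.33). Hk2 had a ratio of 2.24 (1.67 to 3.02), Pkm 2.56 (1.88 to 3.52) and Ldhb 1.56 (1.096 to 2.22). Slc2a4 had 20 and 45 UMIs, a ratio of 2.46 (1.43 to 4.41), and Pfkl had 28 and 45, a ratio of 1.76 (1.07 to 2.93), both above 1 here. Ldha had 32 and 53 UMIs, a ratio of 1.81 (1.15 to 2.91). With mt- UMIs kept in the totals, the sum was 1.72-fold (1.496 to 1.98), Slc2a4 2.10-fold (1.21 to 3.75) and Ldha 1.54-fold (0.977 to 2.47).

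**Figure D3:**
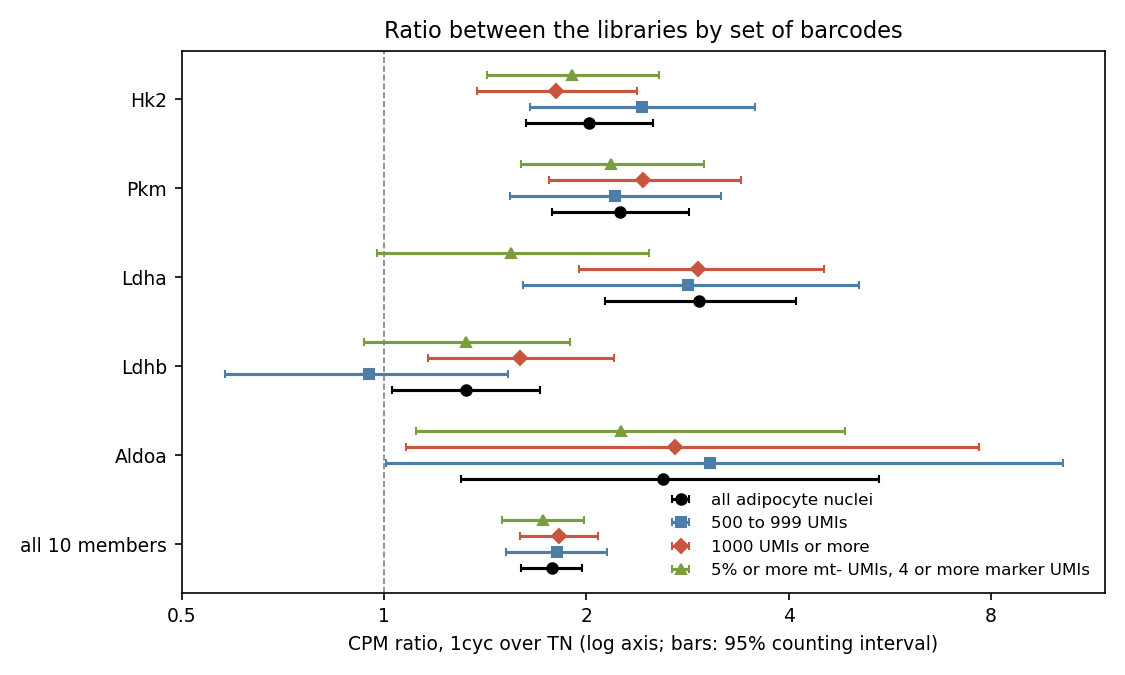
CPM ratio, 1cyc over TN, on a log axis with 95% counting intervals, for 5 members and the sum of all 10, in all adipocyte nuclei (black), those of 500 to under 1000 UMIs (blue), those of 1000 UMIs or more (red) and the barcodes above the mt- limit (green). The totals include mt- UMIs. Hk2 and Pkm lie right of 1 in all 4 sets, while Ldha reaches 1 above the mt- limit on this scale, and Ldhb there and in the set under 1000 UMIs.

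Adipocyte nuclei held more member transcripts than the nuclei below the marker cut. In TN, 225 such nuclei with at least 200 genes held 65 member UMIs, or 200 CPM (155 to 256), and adipocyte nuclei stood 2.56-fold higher (1.98 to 3.36). In 1cyc, 156 nuclei held 52 UMIs, or 415 CPM (310 to 544), and the ratio was 2.20 (1.66 to 2.97). Of the members with 100 UMIs over both classes in a library, Hk2, Pkm and Ldhb were all at least 2-fold higher in TN adipocyte nuclei (3 of 3, against 23.8% of all genes). These 3 reached 100 UMIs through the adipocyte sum, with 137, 114 and 122 UMIs there and 9, 11 and 13 in the other nuclei, so the count is a description. In 1cyc, Pkm and Ldhb were at least 2-fold higher (2 of 4, against 24.4%), with Hk2 at 1.71 (1.04 to 2.98) and Ldha at 1.89 (0.964 to 4.21). Hk2, Pkm, Ldha and Ldhb likewise reached 100 UMIs through the adipocyte sum, with 229, 212, 134 and 134 UMIs there. The other nuclei held 17, 10, 9 and 3, so this count too is a description. Aldoa had a higher level in the TN nuclei below the cut (18.5 CPM, 6 UMIs) than in adipocyte nuclei (10.9 CPM), within counting error.

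Clustering of these other nuclei left 29 TN and 54 1cyc nuclei in 2 clusters whose markers scored best as adipocyte, with median depths of 596 and 365 UMIs. They held 4 and 31 member UMIs, 220 CPM (59.9 to 563) and 1328 CPM (902 to 1885). Without them the level was 199 CPM in TN (61 UMIs) and 206 CPM in 1cyc (21 UMIs), a ratio of 1.03 (0.597 to 1.72), and adipocyte nuclei of 1cyc stood 4.43-fold higher (2.88 to 7.20). By member, Hk2 was then 4.72-fold (1.99 to 14.7), Pkm 5.46-fold (2.10 to 20.2) and Ldha 3.45-fold (1.32 to 12.9) higher in them, and Ldhb had 1 UMI left outside. Haemoglobin took 15.4% of the remaining TN sum. With haemoglobin left out of the totals the levels were 236 and 206 CPM, a ratio of 0.874 (0.505 to 1.46).

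By class, fibroblast or progenitor-like nuclei of TN held 179 CPM (113 to 268), and those of 1cyc 141 CPM (64.4 to 267). This class joins 6 clusters, of which 2 have none of its markers among their 10 leading genes, and 1 other has Cdh19, from the Schwann or neural list, among them. Without the 4 TN and 3 1cyc nuclei of the cluster with Cdh19 the levels were 178 and 146 CPM. Skeletal muscle-like nuclei held 387 CPM (206 to 662, 28 nuclei) and 595 CPM (218 to 1295, 7 nuclei), and pericyte-like nuclei 417 CPM (180 to 821, 12 nuclei) and 286 CPM (34.7 to 1034, 8 nuclei). Endothelial-like nuclei held 131 CPM (35.6 to 334, 23 nuclei) in TN and 0 UMIs in 13 nuclei of 1cyc, with an upper bound of 414 CPM. Smooth muscle-like nuclei, 6 and 1, held 0 UMIs, and 31 TN and 18 1cyc nuclei stayed unnamed, with 159 CPM (89.1 to 263) and 459 CPM (185 to 947). Haemoglobin took 49.9% of the unnamed UMIs of TN and 0.0131% of those of 1cyc, so these 2 levels are not like for like. The unnamed nuclei also join clusters with unlike leading genes. Adipocyte-like nuclei below the cut held 153 CPM in TN (21 nuclei, 2 UMIs) and 1436 CPM (954 to 2076, 46 nuclei) in 1cyc. Leaving out the unnamed and smooth muscle-like nuclei, the order in TN ran from adipocyte through pericyte-like, skeletal muscle-like, fibroblast or progenitor-like and adipocyte-like to endothelial-like nuclei. The intervals of the first 3 overlap, and so do those of the last 4. The adipocyte-like interval (18.6 to 554) also overlaps the adipocyte one (474 to 556). In 1cyc the adipocyte-like nuclei stood first, then adipocyte, skeletal muscle-like, pericyte-like, fibroblast or progenitor-like and endothelial-like nuclei. The first 2 overlap, and of the others only the fibroblast or progenitor-like and endothelial-like intervals lie wholly below the adipocyte one.

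**Figure D4:**
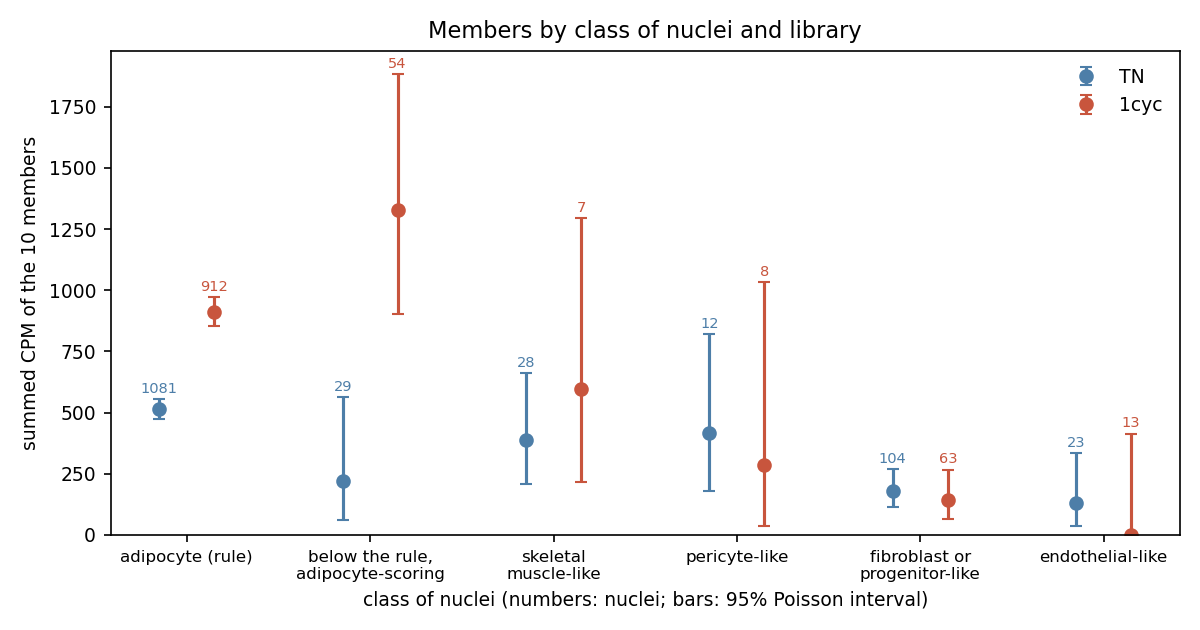
Summed CPM of the 10 members by class of nuclei in TN (blue) and 1cyc (red), 1 library each, as points with 95% Poisson intervals and the number of nuclei above each. The libraries lie apart in adipocyte nuclei and in the adipocyte-scoring nuclei below the marker cut, and their intervals overlap in the other classes shown.

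Against fibroblast or progenitor-like nuclei, adipocyte nuclei stood 2.88-fold higher (1.90 to 4.57) over all members in TN, against 6.48-fold (3.40 to 14.2) in 1cyc. Without the cluster with Cdh19 these were 2.89-fold and 6.23-fold. For comparison, the 6 adipocyte markers outside the cut stood 10.6-fold higher in each library, at 202 and 297 CPM in the fibroblast or progenitor-like nuclei. Pfkp was the member with a ratio below 1 there, 0.956 (0.437 to 2.48) and 0.581 (0.232 to 1.88), on 7 and 5 fibroblast or progenitor-like UMIs. Slc2a4 and Pfkl had 0 UMIs in these nuclei in both libraries. Set against a floor of 3 UMIs per library, which is not a bound, the adipocyte level of Slc2a4 was 1.91-fold (TN) and 1.21-fold (1cyc). The exact intervals start at 1.498 and 0.949, so the 1cyc difference is within counting error. For Pfkl the level was 1.84-fold (TN) and 1.31-fold (1cyc) the floor, with exact intervals from 1.44 and 1.04. Pkm had 4 UMIs there in TN and 0 in 1cyc, where its adipocyte level was 4.57-fold the floor (exact interval from 3.68). Ldhb had 6 and 0, and its 1cyc adipocyte level was 2.89-fold the floor (exact interval from 2.31).

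Adipocyte nuclei were thinned to 500 UMIs in 1 seeded draw. Those with a UMI of Acly, Fasn, Scd1, Elovl6 or Acss2 held 649 CPM of the members in TN. Those without held 499 CPM, which gives 1.30-fold (1.02 to 1.65). For 1cyc the values were 964 and 830 CPM, or 1.16-fold (0.937 to 1.44). Between the libraries the ratio was 1.49 (1.18 to 1.89) in nuclei with such a UMI and 1.67 (1.34 to 2.07) in those without. The higher level in 1cyc was thus present on both sides of this split. The intervals here and in the splits that follow do not cover the spread between draws. Over 20 seeded draws the median of the lipogenic split was 1.25-fold in TN and 1.23-fold in 1cyc. Thinned to 1000 UMIs it was 1.33-fold (1.01 to 1.74) in TN and 1.48-fold (1.16 to 1.91) in 1cyc.

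Nuclei with a Ucp1 UMI, 69 of TN and 94 of 1cyc, held 899 and 1170.2 CPM, against 526 and 860.03 CPM in those without. The ratio of these sides was 1.71 (1.14 to 2.48) for TN, and for 1cyc 1.36 (1.001 to 1.82). Between the libraries it was 1.30 (0.824 to 2.09) in nuclei with a Ucp1 UMI, an interval that includes 1, and 1.64 (1.38 to 1.94) in those without. Nuclei with a UMI of Nnat or Slc7a10, genes of a white-like adipocyte group, held 279 CPM in TN (129 nuclei) against 586 CPM in the others, a ratio of 0.476 (0.278 to 0.767). In 1cyc 29 nuclei with such a UMI held 483 CPM against 913 CPM, a ratio of 0.529 (0.211 to 1.10). Between the libraries it was 1.73 (0.611 to 4.34) in nuclei with such a UMI and 1.56 (1.33 to 1.83) in the others. Without nuclei of 2 or more such UMIs, 99 in TN and 27 in 1cyc, the summed ratio between the libraries was 1.73 (1.56 to 1.93).

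The wider pathway was read from 49 further genes of glucose transport, glycolysis and lactate transport. Of these, 43 had a UMI in adipocyte nuclei and 9 reached 100 UMIs. Among the 9, 7 stood above a ratio of 1, against 60.9% of all genes. The 9 held 3 genes at least 1.5-fold higher in 1cyc, against the 8.56% of all genes given above. With TMM or median-of-ratios scaling, or at least 8 marker UMIs per nucleus, that count was 0, and it was 0 without the nuclei over 5% haemoglobin and 1 without those richer in other cell types' markers. The median log2 ratio of the 9 was 0.26.

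Eno1, the enolase before pyruvate kinase, had 143 TN and 184 1cyc UMIs and a ratio of 1.55 (1.24 to 1.94). Txnip, an arrestin that restrains glucose uptake and is induced by glucose through ChREBP and MondoA, had 276 and 355 UMIs and a ratio of 1.55 (1.32 to 1.82). Slc16a1, the lactate and pyruvate transporter MCT1, had 171 and 213 and a ratio of 1.501 (1.22 to 1.85). Gpi1, the isomerase between hexokinase and phosphofructokinase, had 1.47 (1.18 to 1.85).

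Smaller ratios were found among the regulators. Tbc1d4, the insulin-regulated brake on GLUT4 traffic, had 1.19 (1.07 to 1.33), and Pfkfb3, which makes the phosphofructokinase activator fructose 2,6-bisphosphate, had 1.20 (1.03 to 1.40). Without the nuclei richer in other cell types' markers both intervals include 1, at 1.09 (0.970 to 1.21) and 1.11 (0.951 to 1.30). Hif1a, the remaining gene with 100 UMIs, had 1.03 (0.729 to 1.45). Pfkfb1, a second enzyme of that activator, stood lower at 520 and 427 CPM, a ratio of 0.822 (0.725 to 0.932), and Slc16a7, the transporter MCT2, had 0.833 (0.634 to 1.09).

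No paralog of a member reached 100 UMIs. Pfkm, the muscle phosphofructokinase subunit, had 44 and 51 UMIs and a ratio of 1.40 (0.915 to 2.14). Hk1 had 11 and 8 UMIs, and Slc2a3 had 53 and 26, a ratio of 0.591 (0.355 to 0.962). Pgk1, phosphoglycerate kinase, had 29 and 47 UMIs (1.95, 1.20 to 3.22), and Bpgm, which diverts its substrate, 45 and 14 (0.375, 0.190 to 0.696). Bpgm is abundant in red blood cells, and haemoglobin stood at 36557 and 2734 CPM in these sums. Without the nuclei over 5% haemoglobin, Bpgm had 7 and 14 UMIs, a ratio of 2.32 (0.878 to 6.80). The genes of this paragraph were picked after their values were seen. Hk3 had 1 UMI in each library, and Pklr had 1 in TN.

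**Figure D5:**
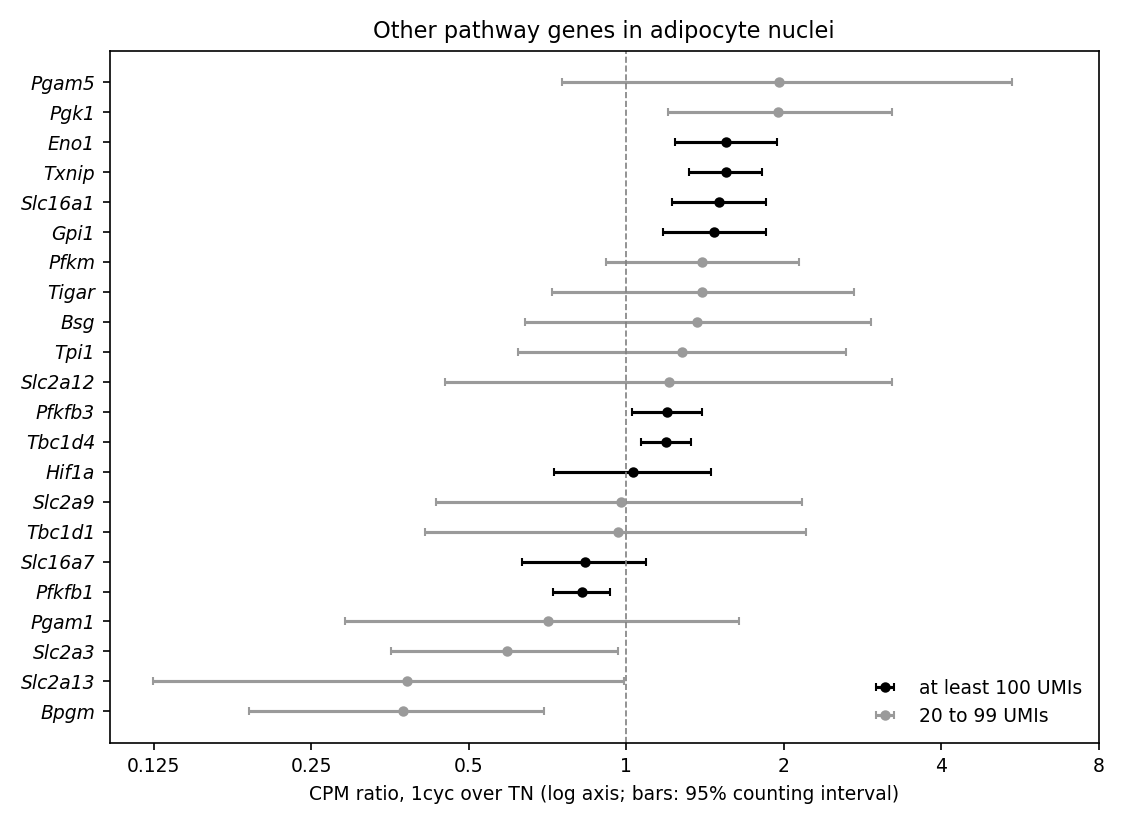
CPM ratio, 1cyc over TN, in adipocyte nuclei on a log axis with 95% counting intervals for the other pathway genes with at least 20 UMIs over both libraries; black marks at least 100 UMIs, grey fewer. Eno1, Txnip, Slc16a1 and Gpi1 lie near 1.5, Hif1a near 1, and Pfkfb1 lies below 1.

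Among 2255 other genes, the profile most like the summed members was that of Pgm2, phosphoglucomutase, with Pearson's r of 0.993 on log2(CPM + 10). Crat, carnitine acetyltransferase, followed with 0.991, then Ylpm1 (0.986), Nfia (0.984) and Clpx (0.979). The 6 points are the TN and 1cyc sums of 3 classes: adipocyte nuclei, adipocyte-like nuclei below the cut and fibroblast or progenitor-like nuclei. With so few points, which share libraries and depth, the order is a description only. Crat held 77.9 CPM in TN adipocyte nuclei, 157 CPM in those of 1cyc and 0 in both fibroblast or progenitor-like sums.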

How the data were processed

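Per the series' design text, reads were aligned to mm10 and UMIs counted with Cell Ranger, version 3 per the submitters' processing notes and 3.1.0 per the file headers. The deposited values are raw UMI counts per gene and barcode. For the annotation version, intron counting and use of strand, no source used here gives a statement. Counts were summed over adipocyte nuclei and scaled to CPM. CPM intervals are exact Poisson, ratios exact conditional binomial and shares Clopper-Pearson, with scipy 1.17.1. A ratio against 0 UMIs uses a floor of 3 counts. The ratio intervals were tested on simulated data. Other nuclei were clustered in scanpy 1.11.5 (2000 variable genes without the members, 30 components, Leiden resolution 2, chosen after seeing the clusters) and named from at least 3 markers at 1.5-fold. Doublets were kept, with Scrublet calls left out as an alternative. TMM used edgeR 4.0.16. Positions are from GENCODE M21, which holds 30934 of 31053 identifiers. All members are named, and of the pathway genes with 100 UMIs the 6 highest and the lowest by interval bound (a rule for 4, of which 2 lay below 1). Members and lists were chosen with earlier results of these data known.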

Additional observations from a re-analysis of the deposited data

Results flagged for a closer look

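Barcodes with 5% or more mt- UMIs lie outside the adipocyte count and were examined on the scale of UMIs that are not mitochondrially encoded, because mt- genes took 23.8% to 27.5% of them in 1cyc. In 1cyc, but not in TN, they carried member transcripts above the level of TN adipocyte nuclei. Those with 4 or more marker UMIs held 1028 CPM (945 to 1116) in 1cyc and 508 CPM (453 to 568) in TN, against 930 and 527 CPM in adipocyte nuclei on that scale. Those with fewer marker UMIs held 959 CPM (867 to 1058) over 1600 barcodes of 1cyc and 266 CPM (213 to 328) over 395 barcodes of TN, a ratio of 3.60 (2.85 to 4.59). The second group of 1cyc thus stood near the adipocyte level, and that of TN near the 206 CPM of other nuclei. Neither group was matched for depth between the libraries. Over all deposited barcodes the median was 800 UMIs in TN and 378 in 1cyc, and the lowest 500 and 262. The same marker cut was thus applied at different depths, and the ratio of 3.60 is not a like-for-like comparison. What the barcodes with 5% or more mt- UMIs are was not tested.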

How the results depend on the processing

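Intervals cover counting error of 1 pooled library per condition, and members under 100 UMIs are limited by depth. No paired analysis was possible because each group has 1 library; no library could be left out. The summed ratio of 1.78 ranged from 1.59 to 1.85 over 19 alternatives and lay outside its interval only with median-of-ratios scaling (1.59). That scaling moves all log2 ratios by −0.16 and TMM by −0.10. In bands of mt- UMIs, not among the 19, the summed ratio was 2.28 (1.72 to 3.06) under 1%. It was 1.67 (1.38 to 2.03) at 1 to under 2% and 1.71 (1.48 to 1.98) at 2 to under 5%. The count of 3 of 7 members at least 1.5-fold higher became 5 of 10 with no UMI minimum, which adds genes of few counts. It was 2 to 4 otherwise, and the number of members that reached the minimum changed as well. In nuclei of 500 to under 1000 UMIs it was 2 of 2 such members, and in those of 1000 or more 4 of 4. For the other pathway genes, the count of 3 of 9 became 0 with TMM, median-of-ratios scaling, 8 marker UMIs or no nuclei over 5% haemoglobin. It was 1 without nuclei richer in other cell types' markers, 5 of 22 at 20 UMIs and 15 of 43 with no minimum. The share of all genes at least 1.5-fold higher was not computed under these alternatives, for the members or the pathway genes. Ldhb turned below 1 (0.951) in nuclei of 500 to under 1000 UMIs. Pfkp, below 1 otherwise, was 1.11 there. Pkm reached 3.28 at a 2% mt- limit. In 1cyc, adipocyte over other nuclei moved from 2.20 to 3.47 at the 2% limit, 3.06 with other nuclei under 2 marker UMIs and 4.43 without the adipocyte-scoring clusters. The thinned ratio of 1.72 kept to 1.67 to 1.70. The lipogenic split in 1cyc moved from 1.16 to 1.48 at 1000 UMIs. The cause of these moves was not tested. Alternatives by depth band, muscle marker, shared barcodes, haemoglobin, other cell types' markers and cluster were chosen after seeing the data.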
